A study of Mus musculus with 3 samples.

Results

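The genes described here are 9 parts of a pair of vasoactive peptide systems, measured in cultured mouse aortic endothelial cells with and without the kinase gene Pim1. For adrenomedullin they are the peptide precursor Adm, the receptor Calcrl and its partner proteins Ramp1, Ramp2 and Ramp3. For endothelin they are the peptide precursor Edn1, the converting enzyme Ece1 and the receptors Ednra and Ednrb. The probes were taken as every non-control probe whose gene name on the array is one of these 9, which gave 19 of the 41174 probes, for 9 of 19744 genes named on the array.

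Each of the 3 arrays carried RNA of Pim1-/- FVB/N cells in Cy5 (red) and of FVB/N wild-type cells in Cy3 (green), per the labels. All cells were primary mouse aortic endothelial cells (MAEC) of mice labelled female and aged 12 weeks, grown on gelatine in serum-containing medium and harvested 24 hours after seeding. No treatment is named in either genotype. The labels call the arrays biological replicates 1 to 3, with no dye swap, so that a difference between genotypes and a difference between dyes cannot be told apart. Whether each array had its own wild-type culture, and whether animals were pooled, is not given in the sources used here, and p-values measure the spread between these 3 arrays.

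Adrenomedullin is a peptide that relaxes vessels and tightens endothelial junctions. Its receptor is a complex: Calcrl encodes the calcitonin receptor-like receptor, which reaches the cell surface and recognises a ligand only together with a receptor activity-modifying protein. With RAMP1 it is a receptor for calcitonin gene-related peptide, and with RAMP2 or RAMP3 a receptor for adrenomedullin, coupled mainly to Gs and cyclic AMP. Endothelin 1 is made by endothelial cells as a longer precursor, which endothelin-converting enzyme 1 cleaves to the active peptide. The endothelin A receptor, typical of vascular smooth muscle, drives contraction through Gq and calcium, and the endothelin B receptor, typical of endothelium, couples to nitric oxide release and clears the peptide.

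The name Ramp2 covered 2 different transcripts on this array, which bears on every result under that name. Of the 5 probes named Ramp2, 1 lies on chromosome 11, on the plus strand by the order of its positions, and carries the RefSeq mRNA of Ramp2. The other 4 lie on chromosome 19 on the minus strand, and their description in the array file is Neat2, a synonym in RefSeq (GRCm38) of Malat1, a long noncoding RNA of chromosome 19 that is retained in nuclear speckles. The contrast between strands under the name Ramp2 was therefore a contrast between 2 loci and not between sense and antisense transcripts of 1 gene. Across the array, 54 probes carried a name whose gene lies on another chromosome and were left unnamed, and 4 of them were these. Of the remaining 15 probes at the members' own loci, 10 were bright enough to be tested.

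The 60-base probe sequences, read from the array files, are shown for the Ramp2 name because they separate the loci. The first line gives the last 30 bases of the chromosome 11 probe, with the polyadenylation signal AATAAA in capitals. In the lines of the chromosome 19 probes, capitals mark the longest run of bases shared with the whole chromosome 11 probe. Where several runs were equally long, the first along the chromosome 19 probe is marked.
Ramp2, chromosome 11: tagtctttaaAATAAAgttatgtttttgga
chromosome 19, probe 1: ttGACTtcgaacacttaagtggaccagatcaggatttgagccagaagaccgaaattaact
chromosome 19, probe 2: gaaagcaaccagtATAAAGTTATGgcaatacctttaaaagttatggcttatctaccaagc
chromosome 19, probe 3: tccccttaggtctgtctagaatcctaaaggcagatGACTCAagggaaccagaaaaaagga
chromosome 19, probe 4: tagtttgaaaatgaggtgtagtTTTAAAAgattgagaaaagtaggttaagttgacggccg
In mm8 coordinates the chromosome 11 probe is at chr11:101064278-101064337 and the chromosome 19 probes are, in order, at chr19:5798230-5798289, chr19:5799100-5799159, chr19:5800526-5800585 and chr19:5802193-5802252. The longest runs shared with the Ramp2 probe were 4 to 11 bases on the same strand and 5 to 7 bases against the reverse complement. For 14 probes of the other members the same runs were 5 to 10 and 4 to 9 bases. AATAAA, searched on both strands, occurred in 1967 of 41174 probes (4.78%) on the probe's strand and in 1748 (4.25%) on the other. Among the 15 probes at the members' loci, those of Ramp2 and 1 of Ednrb held it on the probe's strand and 1 held it on the other.

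Some facts of the whole series touch all values below. The Pim1 probe (chr17:29220807-29220866) gave knockout over wild-type log2 ratios of -0.97, -1.16 and -0.99, which were lower in the knockout channel on all 3 arrays (mean -1.04 ± 0.10 SD, n = 3, adjusted p = 0.00296 by limma with Benjamini-Hochberg adjustment). It was above background in both channels, and whether the probe lies in the deleted part of the gene is not given in the sources used here. Although both genotypes are labelled female, Xist, the RNA of the inactive X chromosome, was at least 168-fold lower in the knockout channel. The Y-linked genes Eif2s3y and Ddx3y were at least 28.1-fold and at least 12.1-fold higher there, so that the label and the data disagree for the knockout channel. This difference lies on the same side as the genotype on all 3 arrays, and the 2 cannot be told apart. Log2 ratios of arrays 2 and 3 were the most alike (r = 0.905 across 25078 probes), and array 1 had r = 0.681 and 0.699 with them. Results that rest on array 1 are therefore given with and without it. Without array 1, 5597 of 13444 tested genes had an adjusted p under 0.05 by limma, against 2705 of 13450 with all 3 arrays. Local background near the members' spots was 48.5 to 72 in the red knockout channel and 13 to 19 in the green wild-type channel. Raw pixel values given below include this background, so they are not directly comparable between channels. Of all probes, 53.9% to 57.2% were well above background in the knockout against 58.4% to 62.6% in the wild type.

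Few markers of the labelled cell type were detected. Of 20 endothelial markers, 7 cleared background on every array in the knockout and 8 did in the wild type. The junction genes Pecam1 and Cdh5, the receptor Tie1 and the transcription factors Erg and Sox17 were above background on no array in either genotype. Of the lymphatic endothelial markers Prox1, Flt4 and Mmrn1 were also above background on no array, and 1 of 6, Pdpn, was above it on all. By contrast, 10 of 11 fibroblast markers in the knockout and 9 in the wild type, and 9 and 10 of 12 smooth muscle markers, were above background on all arrays. The summed normalised intensity of the 12 mesothelial and epithelial markers was 12916 to 15974 in the knockout and 81177 to 101610 in the wild type, ranges that did not overlap. Of 11 of them tested, 1 passed higher and 7 lower, with a median log2 ratio of -1.35. For this and the other marker lists, the share of all tested genes that passed was 20.1%, with 8.68% higher and 11.4% lower. Sums of the endothelial markers were 9198 to 12066 in the knockout and 5544 to 6093 in the wild type. The median log2 ratio of the 9 tested was nevertheless -0.06: Eng (2.51) and Egfl7 (1.42) passed higher and Fli1 (-0.87) lower. The lymphatic sums were 1064 to 1175 and 564 to 641, and of those 6 genes only Pdpn (1.76) was bright enough to be tested. The fibroblast sums were 264723 to 312644 and 261381 to 291334, and the smooth muscle sums 60562 to 62960 and 58275 to 72769, both overlapping, although single markers differed widely. Of 10 fibroblast markers tested, 7 passed higher and 1 lower (median 1.82), among them Col3a1 at 3.09, Dcn at 2.70 and Col1a2 at -0.70. Of 10 smooth muscle markers tested, 2 passed higher and 3 lower (median -0.29), among them Pdgfrb at 0.77 and Cspg4 at -2.57. The sums of 10 macrophage markers were 2514 to 2864 in the knockout and 3833 to 5117 in the wild type, with Adgre1, Itgam, Aif1 and Tyrobp above background on no array. Of 5 macrophage markers tested, 2 passed, both lower (Lyz2 at -1.78 and Cd14 at -0.87), with a median of -0.31. Without array 2 and without array 3 the calls kept were 4 and 2 of 8 in fibroblast, 2 and 2 of 5 in smooth muscle, 4 and 5 of 8 in mesothelial, 2 and 3 of 3 in endothelial, and 2 and 1 of 2 in macrophage markers. Of all tested genes, 670 passed without array 2 and 634 without array 3, against 2705 with all arrays. The part that such markers have in the members' ratios was not tested, and in these bulk cultures fewer cells of a type and less RNA per cell cannot be told apart.

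Of the 9 members, each represented by its brightest tested probe at its own locus, 4 passed the test (44.4%). Calcrl and Ramp2 were lower in the knockout, Ednra and Ece1 were higher, and 5 did not pass. Across the array 20.1% of 13450 tested genes passed, 8.68% higher and 11.4% lower, and 17.1% of 25078 tested probes. The median log2 ratio of the members was 0.04 and that of all tested genes was -0.02. Within each system the calls went in the same direction, lower for the adrenomedullin genes and higher for the endothelin genes. Mean ratios of the opposite sign were those of Ramp3 and Adm in the former and Edn1 in the latter, none of which passed. Of the 4 calls, Calcrl alone held without array 2 and without array 3. With so few members and calls, the share of 44.4% and the directions are a description of these 9 genes.

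**Figure D1:**
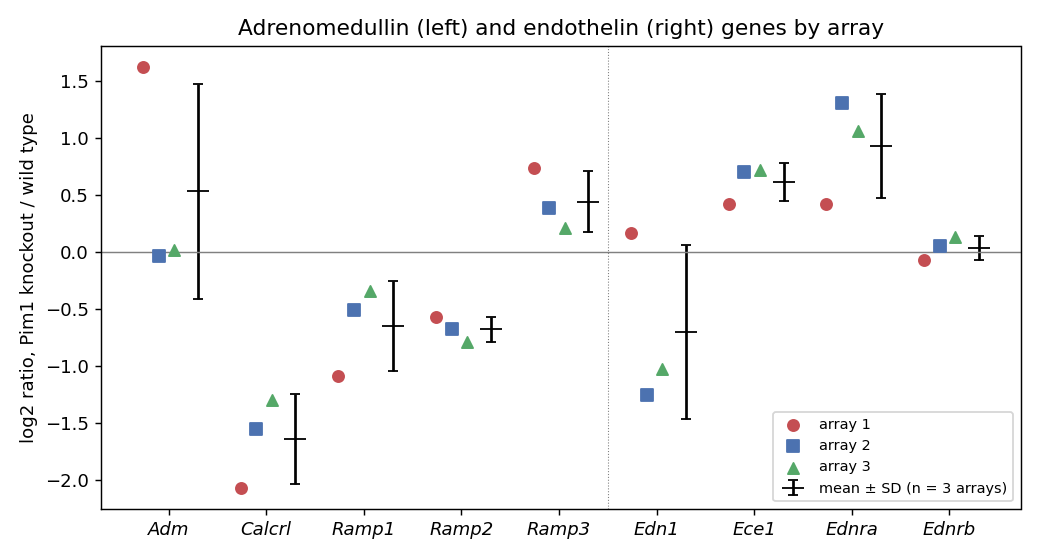
Log2 ratio of Pim1 knockout over wild type (y axis) for the 9 genes on each of the 3 arrays (coloured symbols), with the mean and SD over 3 arrays in black and a dotted line between the adrenomedullin and endothelin genes. Calcrl and Ramp2 lie below 0 and Ednra and Ece1 above 0 on all arrays, while array 1 is apart from the others for Adm and Edn1.

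Adm, the precursor of adrenomedullin and of the related peptide PAMP, differed between arrays more than between genotypes. The probe lies at chr7:110420751-110420810 (mm8). Its normalised log2 intensities were 9.19, 8.39 and 8.48 in the knockout and 7.57, 8.42 and 8.46 in the wild type. The log2 ratios were 1.62, -0.04 and 0.02, so array 1 alone carried a higher knockout value and the genotypes overlapped. In raw pixels, array 1 read 642 in the knockout and 127 in the wild type, against 379 and 327 on array 2 and 374 and 212 on array 3. The mean was 0.53 ± 0.94 (SD, n = 3), with a 95% interval of -0.32 to 1.39, and did not pass the test (adjusted p = 0.35 by limma). Without array 1 the mean was -0.01 (adjusted p = 0.964).

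Calcrl, the receptor subunit that binds the peptide, had the largest difference of the 9. At chr2:84131751-84131810 (mm8, minus strand) its normalised log2 intensities were 9.14, 8.90 and 9.37 in the knockout and 11.21, 10.45 and 10.66 in the wild type. Every knockout value was below every wild-type value, and in raw pixels the knockout read 638, 565 and 716 against 1917, 1475 and 1125. The log2 ratios were -2.06, -1.55 and -1.29, a mean of -1.64 ± 0.39 (SD, n = 3) with a 95% interval of -2.05 to -1.22. This is a 3.11-fold lower level in the knockout (adjusted p = 0.0036 by limma). The call held under each of the 19 alternatives, which were not all separate, with adjusted p up to 0.0405.

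A second Calcrl probe, at chr2:84133755-84133814 and 2004 bases further 5' on the gene's strand, was dim. It cleared background on each array in the wild type and on none in the knockout, which makes its difference a bound of at least 1.12-fold lower in the knockout. Its log2 ratios were -0.15, -0.26 and -0.10 (adjusted p = 0.286 by limma), all of the same sign as the first probe. The scanner software's own log ratio for that probe averaged -1.23 on the log2 scale (adjusted p = 0.0225). The offset of 50 added before taking logs pulls ratios of dim probes towards 0. With an offset of 0 the second probe had -0.41 and still did not pass (adjusted p = 0.106 by limma). It passed under 2 of 16 alternatives, the software's log ratio and the deposited copy of that ratio. The average of both probes in place of the brighter gave -0.90 for Calcrl.

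Of the partner proteins, Ramp1 and Ramp2 read lower in the knockout on each array and Ramp3 read higher, and only Ramp2 passed the test. Ramp1, which makes the receptor one for calcitonin gene-related peptide, was near the detection limit. Its probe is printed because it joins sequence from distant parts of the gene: its 60 bases span chr1:93027282-93053537 (mm8), 26256 bases of genome.
Ramp1: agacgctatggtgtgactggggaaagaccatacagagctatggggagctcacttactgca
The Ramp1 probe cleared background on each array in the wild type and on no array in the knockout. Its normalised log2 intensities were 6.06, 6.21 and 6.20 in the knockout and 7.15, 6.72 and 6.54 in the wild type, without overlap. The bound was at least 1.54-fold lower in the knockout. Its measured log2 ratios of -1.09, -0.51 and -0.34 averaged -0.65 ± 0.39 (SD, n = 3), with a 95% interval of -1.06 to -0.24, and did not pass the threshold (adjusted p = 0.0515 by limma). It passed under 9 of 18 alternatives, which count the scanner software's log ratio a second time as the deposited table. Among these were the scanner software's log ratio (-3.27, adjusted p = 0.00073) and the fit without array 1 (-0.43, adjusted p = 0.00402).

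Ramp2, which turns the receptor into an adrenomedullin receptor and is needed for vascular development, was lower in the knockout. At its own locus the normalised log2 intensities were 7.48, 7.39 and 7.48 in the knockout and 8.05, 8.06 and 8.27 in the wild type. The genotypes did not overlap, and the 3 arrays lay close together with log2 ratios of -0.57, -0.67 and -0.78. The mean of -0.68 ± 0.11 (SD, n = 3; 95% interval -0.92 to -0.43) is a 1.60-fold lower level (adjusted p = 0.0110 by limma). The ratio changed little when an array was left out, but the call was lost without array 2 (-0.68, adjusted p = 0.102) and without array 3 (-0.62, adjusted p = 0.113).

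The chromosome 19 probes that carry the name Ramp2 read lower in the knockout as well, with another pattern over the arrays. The third probe, at chr19:5800526-5800585, had log2 ratios of -1.25, -1.53 and -1.61 (mean -1.47 ± 0.19 SD, n = 3, adjusted p = 0.0016 by limma). The first gave -0.36, -1.38 and -1.04 (adjusted p = 0.0357), the second -0.36, -1.42 and -0.87 (adjusted p = 0.0423) and the last -0.37, -1.44 and -0.71 (adjusted p = 0.0505, not past the threshold). Array 1 was thus the smallest difference for all 4 of them, as it was at the Ramp2 locus, where the 3 arrays lay closer together.

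Set against the chromosome 19 probes, the Ramp2 locus was nearer to 0 than the third probe on every array, by 0.68, 0.86 and 0.83 on the log2 scale (mean difference 0.79 ± 0.10). Against the first, second and last probes the mean differences were 0.25 ± 0.46, 0.20 ± 0.49 and 0.16 ± 0.52, each smaller than its SD over the arrays. Taking the name as it stands, the brightest probe would give -1.47 for Ramp2, in place of -0.68 at its own locus.

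**Figure D2:**
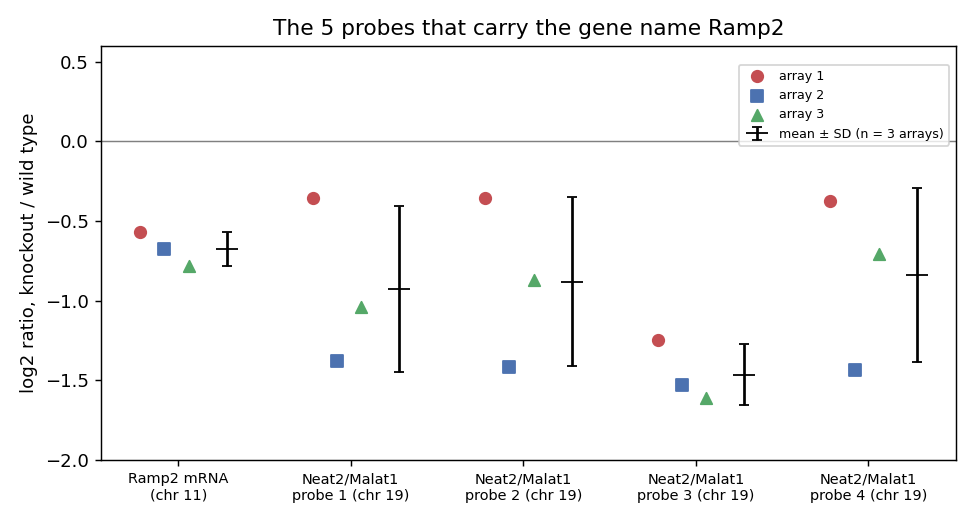
Log2 ratio of knockout over wild type (y axis) on each array for the 5 probes named Ramp2, with the mean and SD over 3 arrays in black; the chromosome 19 probes are numbered by position. The chromosome 11 probe of the Ramp2 mRNA spreads from -0.57 to -0.78, and all 4 chromosome 19 probes are nearer to 0 on array 1 than on arrays 2 and 3.

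Ramp3, the alternative adrenomedullin partner, which also directs recycling of the internalised receptor, read higher in the knockout on all 3 arrays without passing the test. At chr11:6577299-6577358 (mm8) its normalised log2 intensities were 7.61, 7.36 and 7.32 in the knockout and 6.88, 6.97 and 7.11 in the wild type, with no overlap. The log2 ratios were 0.73, 0.39 and 0.21, a mean of 0.44 ± 0.27 (SD, n = 3; 95% interval 0.12 to 0.77; adjusted p = 0.0743 by limma). It passed under 4 alternatives. Among them were the software's log ratio (0.94, adjusted p = 0.0474), counted a second time as the deposited table, and the fit without array 1 (0.30, adjusted p = 0.0430). Within each array the ratio of Ramp3 lay above that of Ramp2, by 1.31, 1.06 and 0.99 on the log2 scale (mean 1.12 ± 0.16). These differences describe unequal change on the same arrays and were not tested.

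**Figure D3:**
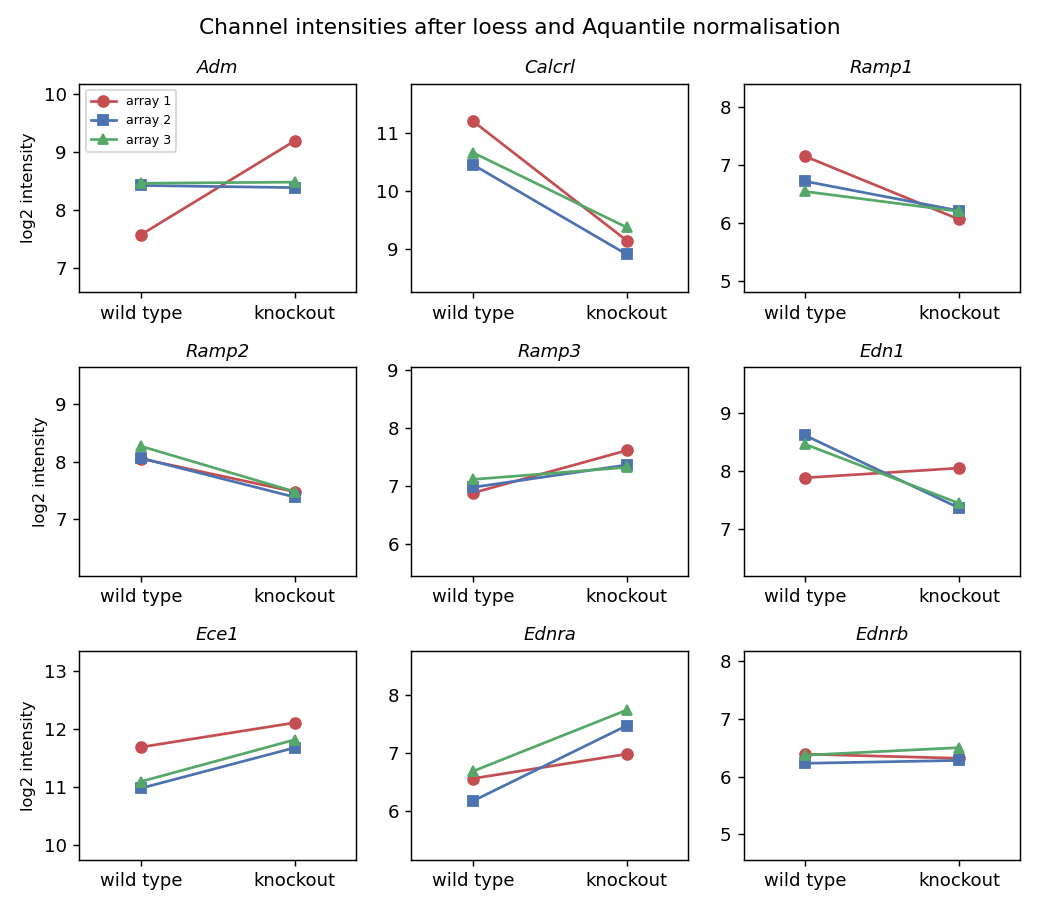
Normalised log2 intensity (y axis, the same span in every panel) of each gene in wild-type and knockout channels, 1 line per array. Lines fall on all arrays for Calcrl, Ramp1 and Ramp2 and rise for Ramp3, Ece1 and Ednra, while those of Adm and Edn1 differ between array 1 and the others.

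Edn1, the endothelin 1 precursor, was lower in the knockout on 2 of 3 arrays. The probe lies at chr13:42318704-42318763 (mm8). Its normalised log2 intensities were 8.05, 7.36 and 7.44 in the knockout and 7.88, 8.61 and 8.46 in the wild type, and the genotypes overlapped because array 1 went the other way. Its log2 ratios were 0.17, -1.25 and -1.02, a mean of -0.70 ± 0.76 (SD, n = 3; 95% interval -1.41 to 0.0021), which did not pass (adjusted p = 0.156 by limma). Without array 1 the mean was -1.14 and passed (adjusted p = 3.22e-09 by limma, from 2 arrays), in a fit where 5597 of 13444 tested genes passed. Edn1 also passed when arrays were weighted by their quality (-0.96, adjusted p = 0.0111). Adm and Edn1 both read higher on array 1 than on the others. Within arrays the ratio of Adm lay above that of Edn1 by 1.45, 1.21 and 1.04 (mean 1.24 ± 0.21, not tested). Most other pairs of members that were compared varied more. Ednra lay above Edn1 by 0.26, 2.55 and 2.08 (mean 1.63 ± 1.21), and Ece1 above Edn1 by 0.25, 1.95 and 1.74 (mean 1.32 ± 0.93).

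Ece1, the membrane metalloprotease that activates the endothelin precursor, was higher in the knockout. At chr4:137237226-137237285 (mm8) its normalised log2 intensities were 12.11, 11.67 and 11.81 in the knockout and 11.68, 10.97 and 11.09 in the wild type. The ranges met, since the lowest knockout value and the highest wild-type value were almost the same, but on each array the knockout was higher, by 0.42, 0.70 and 0.72. In raw pixels the knockout read 5274, 3935 and 3970 and the wild type 2670, 2105 and 1490. The mean was 0.62 ± 0.17 (SD, n = 3; 95% interval 0.35 to 0.88), a 1.53-fold higher level (adjusted p = 0.0191 by limma). The call was lost without array 2 (0.57, adjusted p = 0.149) and without array 3 (0.56, adjusted p = 0.153). The other Ece1 probe, at chr4:137188261-137188320 and taken from a cDNA clone, was above background on no array.

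Ednra, the contractile endothelin receptor, was higher in the knockout by 1 of its 4 probes, the only one above background. The first 30 bases of that probe, at chr8:80559158-80559217 (mm8, minus strand), are shown with a second probe of the same RefSeq mRNA at chr8:80563888-80563947, since these 2 of 1 transcript read differently.
Ednra, above background: ggccctggtaactctactgggcattttccc
Ednra, not above background: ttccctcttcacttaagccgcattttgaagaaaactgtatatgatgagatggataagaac
The brighter probe had normalised log2 intensities of 6.98, 7.47 and 7.74 in the knockout and 6.55, 6.17 and 6.68 in the wild type, without overlap. In raw pixels these were 122, 188 and 227 in the knockout, against 44.6, 32.1 and 33.5 in the wild type. Local background, not subtracted from these pixels, was 55, 61 and 67 in the knockout and 15.5, 16 and 15 in the wild type. Log2 ratios of 0.42, 1.30 and 1.06 gave a mean of 0.93 ± 0.45 (SD, n = 3; 95% interval 0.47 to 1.38), or 1.90-fold higher (adjusted p = 0.0264 by limma). The software's log ratio was larger, 2.75 on the log2 scale. The call was lost without array 2 (0.74, adjusted p = 0.153), without array 3 (0.86, adjusted p = 0.166) and when no probe was filtered out (adjusted p = 0.0546).

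The other 3 Ednra probes were above background on no array in either channel and were not tested. The second mRNA probe gave 0.08 ± 0.13 (SD, n = 3), and the 2 from cDNA clones, at chr8:80556732-80556791 and chr8:80565903-80565962, gave 0.04 ± 0.15 and 0.10 ± 0.10. These lie at background intensity, and no difference could be read from them.

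Ednrb, the endothelin B receptor of endothelium, stayed at the detection limit in both genotypes. The probe at chr14:102700946-102701005 (mm8, minus strand) was above background on 1 of 3 arrays in the knockout and on 2 of 3 in the wild type. Its log2 ratios were -0.07, 0.05 and 0.13, a mean of 0.04 ± 0.10 (SD, n = 3; 95% interval -0.21 to 0.28; adjusted p = 0.845 by limma). The second probe, at chr14:102702709-102702768, was above background on no array (0.06 ± 0.11). At this brightness a difference in Ednrb was not detectable, which is not a statement that there is none.

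**Figure D4:**
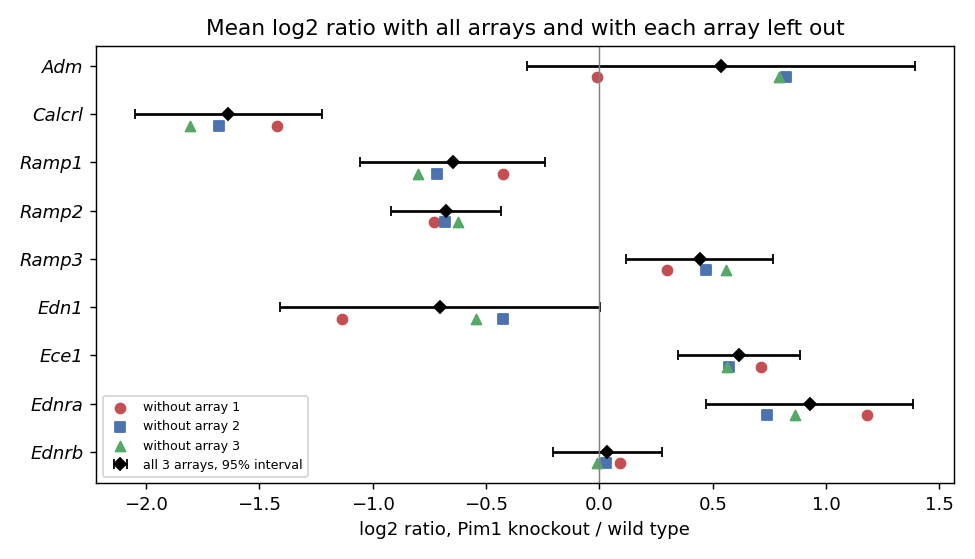
Mean log2 ratio of knockout over wild type (x axis) for each gene from all 3 arrays with its 95% interval from limma (black), and from 2 arrays with each array left out in turn (coloured symbols). Calcrl stays at or below -1.42 whichever array is left out, Adm moves to -0.01 without array 1, and Edn1 moves to -1.14 without array 1.

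Other ligands, receptors and enzymes of the same peptides mostly did not pass. Of 18 such genes, 11 were tested and 2 passed (18.2%), with a median log2 ratio of 0.06. Furin, the convertase that trims the endothelin precursor before Ece1 acts, was higher (0.59, adjusted p = 0.017 by limma). Ece2, a second endothelin-converting enzyme, was lower (-0.70, adjusted p = 0.0329). Ackr3, an atypical receptor that takes up adrenomedullin, had 0.27 (adjusted p = 0.363), and Pam, which amidates the adrenomedullin C terminus, had 0.13 (adjusted p = 0.571). Crcp, a coupling protein of Calcrl, had 0.17 (adjusted p = 0.337). Among peptide-degrading enzymes, Mme was above background in the wild type only (measured as 1.21-fold lower, adjusted p = 0.106) and Ide had -0.35 (adjusted p = 0.0647). The precursors Adm2, Calca, Calcb and Edn3 and the receptor Calcr were above background on no array, and Edn2 on 1 array in the wild type. Neither call held without array 2 or without array 3: Furin then had adjusted p = 0.107 and 0.147, and Ece2 had 0.170 and 0.0882.

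Genes of the Gs and cyclic AMP route, which lies behind the adrenomedullin receptor, moved both ways. Of 22 tested, 3 were higher and 3 lower (27.3%), with a median of -0.21. Adcy7, an adenylyl cyclase, was the largest at 2.32 (adjusted p = 0.00153 by limma), followed by the cyclic AMP phosphodiesterase Pde4b at 1.69 (adjusted p = 0.00416). Prkar1b, a regulatory subunit of protein kinase A, was lower (-0.80, adjusted p = 0.00978), and the phosphodiesterase Pde3b was higher (0.56, adjusted p = 0.0267). Of the 6 calls, Adcy7 and Pde4b were left without array 2, and Adcy7 without array 3. The software's log ratio gave -2.22 for Prkar1b and 2.08 for Pde3b, each of them above background on 2 of 3 arrays in 1 genotype and on all 3 in the other.

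On the Gq, G12/13 and calcium route of the endothelin receptors, 1 of 19 tested genes was higher and 5 were lower (31.6%), with a median of -0.05. The phospholipases Plcb1 (-1.08, adjusted p = 0.0191 by limma) and Plcb4 (-0.99, adjusted p = 0.0252) were lower, while the phospholipase Plcb3 was higher (0.59, adjusted p = 0.041). None of the 6 calls held without array 2 or without array 3, where adjusted p for these 3 genes ran from 0.0706 to 0.232. Among receptor kinases, arrestins and sorting proteins, 9 of 9 were tested and 1 passed (11.1%, median -0.14): Arrb2, an arrestin that uncouples receptors, was higher (0.53, adjusted p = 0.0369), with adjusted p = 0.205 without array 2 and 0.225 without array 3. Slc9a3r1 and Nsf, which interact with the tail of RAMP3 in receptor recycling, had 0.20 (adjusted p = 0.213) and -0.38 (adjusted p = 0.0524).

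Adm and Edn1 are both known targets of hypoxia signalling, so genes of that response were read beside them. Of 12 tested, 4 were higher and 0 lower (33.3%), with a median of 0.31. At an unadjusted limma p under 0.05, 6 were higher and 2 lower, beside 16.4% of all tested genes higher and 19.6% lower. The 2 lower were Egln1 and Egln3, named after their values were seen. Bnip3, a mitophagy receptor (1.77, adjusted p = 0.0147 by limma), the glucose transporter Slc2a1 (1.15, adjusted p = 0.00295), Ankrd37 (0.69, adjusted p = 0.0439) and lactate dehydrogenase Ldha (0.58, adjusted p = 0.033) rose. Only Slc2a1 of these 4 held without array 2 and without array 3. Hif1a had 0.18 (adjusted p = 0.549). Adm (0.53, adjusted p = 0.35) and Edn1 (-0.70, adjusted p = 0.156) did not pass, and a link between them and this list was not tested. Every share in these lists stands beside the 20.1% of all tested genes that passed, and with 9 to 22 genes a list such shares are descriptions.

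**Figure D5:**
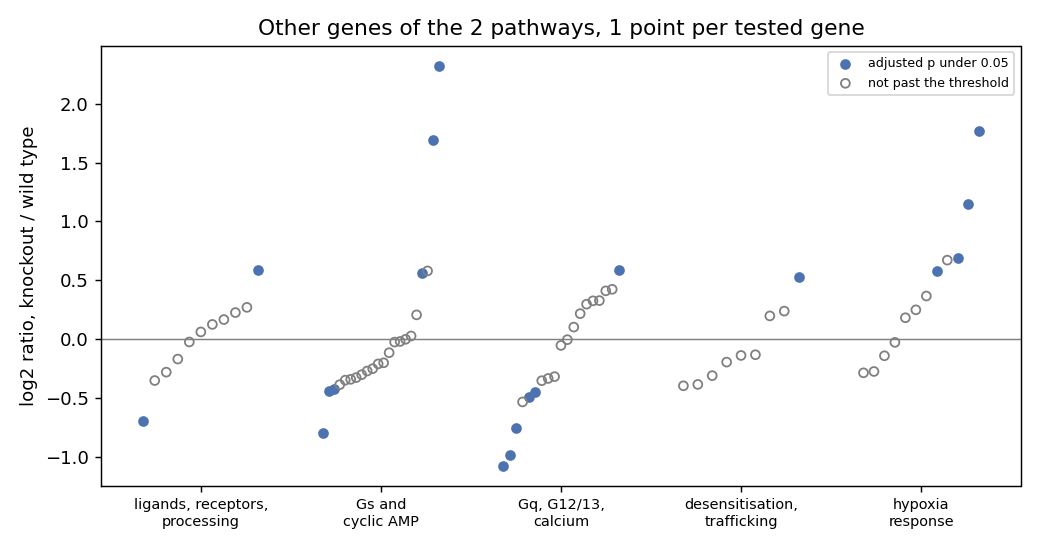
Log2 ratio of knockout over wild type (y axis) for every tested gene of 5 lists around the peptide systems, 1 point per gene, filled where adjusted p was under 0.05. Adcy7 at 2.32 and Bnip3 at 1.77 are the highest points and Plcb1 at -1.08 is the lowest.

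The genes nearest to Calcrl over the 3 arrays, by Euclidean distance between log2 ratios, were Tafa5 (0.0695), Foxd1 (0.112) and C130071C03Rik (0.135). Tafa5 had -2.12, -1.50 and -1.30, array by array close to the -2.06, -1.55 and -1.29 of Calcrl. Nearest to Ednra were Pgghg (0.0569), Igsf3 (0.127) and Cdkn2a (0.137), with 0.44, 1.27 and 1.02 for Pgghg. The distances are a description over 3 arrays, with no test.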

How the data were processed

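Per the labels, each of 3 two-colour arrays took amplified RNA of the knockout in Cy5 and of the wild type in Cy3. For 45018 spots per array, the deposited files gave the intensity of spot and local background (mean and median of pixels) and, per the file headers, a log10 ratio of red over green. The submitters' processing notes name Agilent Feature Extraction 9.5.3.1. The deposited value table held the same log10 ratio (largest difference 0 on each array, column medians 0), so its scale and direction were known, with no gene-wise centring. All arrays came from 1 slide and 1 scan day, so that neither could be tested as a batch.

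Mean pixel and median local background intensities were corrected with normexp (offset 50) and log2 ratios normalised within arrays by loess, with 1639 control spots and outlier-flagged spots at weight 0. The flagged spots (121, 140 and 136) were left out, no spot was saturated, and spots of 1 probe were averaged, which left 41174 probes. To be tested, a probe had to clear background in either channel on 2 or more of the 3 arrays. The test of the mean log2 ratio against 0 used limma's lmFit and eBayes (version 3.58.1, R 4.3.3; 3.46 prior degrees of freedom). Every adjusted p is by Benjamini-Hochberg across the probes tested in that fit (25078 with all arrays and the main filter), and the threshold was 0.05. Values after ± are SDs over arrays, and the 3 arrays limit the precision. A probe not well above background in 1 genotype on any array was given as a bound, or as measured where the bound equalled the measured ratio. The bound set the brighter genotype's mean over the dimmer one's detection floor, or over its own signal where that was higher. It takes no account of the spread between arrays. The single-channel values used were normalised by loess and Aquantile and are open to dye bias without a dye swap.

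Probes were named through RefSeq (GRCm38, names only): 24375 by accession, 121 by another accession, 6193 by symbol and 2373 by synonym, with 8058 unnamed and 54 set aside for a name on another chromosome. The 253 probes against their gene's strand were left out, and a gene of several probes was its brightest tested one. Coordinates are the array files' own (mm8), and positions in exons or UTRs were not analysed here. Probe sequences come from the array files, and strand from the order of positions.

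The members, gene lists, markers and tests were chosen with earlier results of these data known. The genes named were the 9 members with every probe, Pim1, the ligands, receptors and enzymes of the peptide systems, up to 4 called genes of each pathway list by size (1 that the rule would name is not reported here), and for likeness the 3 nearest genes to the called member with the largest ratio and to the largest of the other sign. The fit was tested on simulated data with known changes. Alternatives changed the background correction, normalisation, filter, variance model, probe summary, threshold or the arrays used. They were not all separate, and counts of them are descriptions. The deposited table repeats the software's log ratio, and Aquantile leaves each log ratio as it was. The mean of all probes leaves the ratio of a gene with 1 tested probe as it was.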

Additional observations from a re-analysis of the deposited data

How the results depend on the processing

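No called result reversed under any alternative run. Of all tested genes 2705 passed, against 4320 with array weights, 959 at adjusted p under 0.01 and 634 to 5597 with an array left out (5597 without array 1, 670 without array 2 and 634 without array 3). Of the 9 members 4 passed, against 1 (Calcrl) at adjusted p under 0.01 and 1 to 7 with an array left out (7 without array 1, and Calcrl alone without array 2 or array 3). Both counts stayed within 1.5 times under the other alternatives, 14 of 19 and 15 of 19 in all. Under median centring in place of loess 55.6% of 1866 called genes were higher in the knockout, against 43.2% in the main setting, and the same 4 members passed. Taking the array's gene names with no check of the chromosome, chosen after seeing the data, changed Ramp2 alone among the members. No paired analysis was possible because the arrays form 1 group with no second group to pair by number; both genotypes share an array, so the ratio tested throughout already pairs them. The number of arrays, the absence of a dye swap and the brightness over background of Ramp1, Ednra, Ednrb and the second Calcrl probe limit what can be read.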
